A study of Rattus norvegicus with 23 samples.

Results

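NRK-52E cells, a line of rat kidney epithelial cells, were compared with NRK-49F cells, a line of rat kidney fibroblasts, in the samples that had been kept at pH 6.0. The 11 samples at pH 6.0, n = 6 of NRK-52E and n = 5 of NRK-49F, were chosen by the cell line and pH in their labels, out of 23 rat samples used here. The labels call the lines NRKE and NRKF. Both lines were grown as monocultures, left without serum for 24 h and then held for 48 h in medium at pH 7.4 or set to pH 6.0 with HCl. The 12 samples at pH 7.4, 6 of each line, served here to tell which line differences changed with pH. No gene was altered in these cells, and the acid medium and the 24 h without serum were shared by both lines. Each cell type is represented by 1 line, so a difference between epithelial cells and fibroblasts and a difference between these 2 lines cannot be told apart. The labels do not say that the samples of a line came from separate cultures, so the p-values measure the spread between these samples, which may be technical.

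Renal tubule epithelium forms polarised sheets that reabsorb solutes and secrete acid. Fibroblasts lie in the interstitium between the tubules, where they make collagen and other matrix and send growth factors and cytokines. Both cell types meet low pH in acidosis, which in tubule cells is known to act on ammonia production, acid transport and stress responses, and the purpose of the study was to describe what acidosis does to gene expression in such cells.

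Poly(A) RNA was sequenced, and the deposited values were raw counts of read pairs on 30452 annotated genes. Total counts at pH 6.0 ranged from 16657666 to 33690997 in NRK-52E (median 17438369) and from 16800361 to 31206192 in NRK-49F (median 24410964). Levels are given in FPM, the counts relative to the library size scaled by TMM (trimmed mean of M values) as edgeR's cpm function gives them, and 3 counts, the detection floor used here, corresponded to between 0.0873 and 0.183 FPM. The floor covers counting error only. In a principal component analysis of the 11 samples the first component held 90.1% of the variance and separated the lines. The second held 4.42% and separated 2 sample groups of NRK-52E that the labels number 1 and 3, with 3 samples each. NRK-49F came from sample groups 4 and 6, so sample group and line cannot be told apart, and the sources used here do not say what a sample group is. Between sample groups 1 and 3 of NRK-52E, 565 genes averaging 5 FPM or more (3.82% of the genes tested) differed by more than 2-fold without overlap, against 13 genes (0.088%) between groups 4 and 6 of NRK-49F. Group 4 held only 2 samples at pH 6.0, A042 and A043. These differed more from each other (chi-square of 114 per degree of freedom over genes) than A043 did from A056 of group 6 (8.51). The part of this spread in the low number of 13 genes was not tested. Genes seen in 1 line alone stood in the other line's pH 6.0 libraries at between 0.0149% and 0.253% of the level in the line of origin. They had been chosen for being low there, so these shares cannot show how much signal of the other line the libraries held. At pH 7.4, these genes stood over 1% in 3 libraries, namely NRK-52E replicate A021 with 1.30%, NRK-49F replicate A039 with 1.16% and NRK-49F replicate A051 with 5.795%. Counts and list medians that use pH 7.4 are therefore also given without these 3. In bulk RNA, fewer cells of a kind and less RNA per cell cannot be told apart.

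Most measured genes differed between the lines at pH 6.0. Of 14777 genes tested, 11155 (75.5%) passed the threshold of an adjusted p under 0.05 (edgeR quasi-likelihood test, Benjamini-Hochberg). Among these, 5401 (36.6%) were higher in NRK-52E and 5754 (38.9%) were higher in NRK-49F. A difference of more than 2-fold was called for 6310 genes (42.7%), 2872 of them higher in NRK-52E and 3438 higher in NRK-49F. The samples of the lines did not overlap for 8467 genes (57.3%). The median log2 difference (NRK-52E minus NRK-49F) over all genes tested was -0.02. With libraries scaled by their size alone this median moved to 0.19, and 57.3% of the calls, instead of 48.4%, were then higher in NRK-52E. Differences of more than 16-fold were found for 634 genes higher in NRK-52E and 965 genes higher in NRK-49F.

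**Figure D1:**
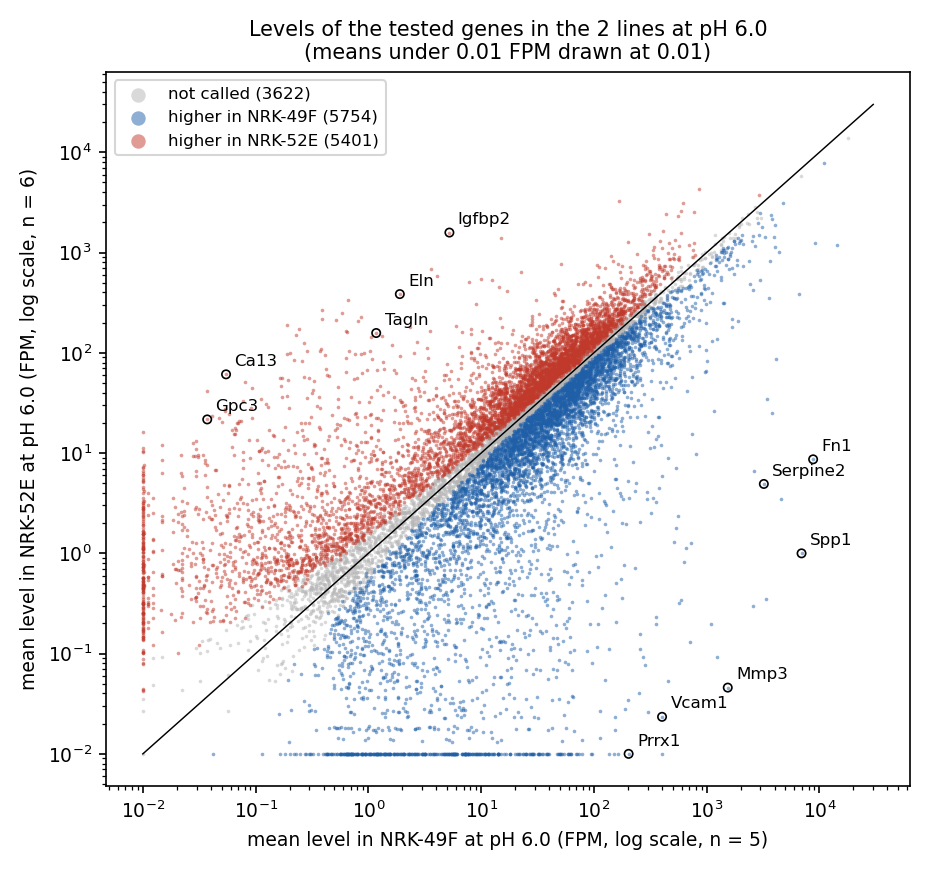
Mean level of every tested gene at pH 6.0 in NRK-49F (horizontal axis, FPM, log scale, n = 5) against NRK-52E (vertical axis, FPM, log scale, n = 6), with means under 0.01 FPM drawn at 0.01 and a line of equality. The 5401 genes higher in NRK-52E lie above the line and the 5754 genes higher in NRK-49F lie below it, and circled genes such as Ca13, Igfbp2, Spp1 and Mmp3 lie far from it.

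The labels were checked against marker genes of epithelial cells and fibroblasts. Of 27 epithelial markers in the table, 11 were tested, of which 7 were higher in NRK-52E and 4 higher in NRK-49F, with a median log2 difference of 1.97, or 0.55 when genes of low counts were kept in the fit. Lsr, a protein of tricellular junctions, lay between 38 and 76.9 FPM (median 56.2) in NRK-52E and at 1.38, 5.12, 2.71, 2.67 and 3.28 FPM in NRK-49F, with no overlap and a log2 difference of 4.26 ± 0.32 (SE, edgeR adjusted p = 1.44e-11). Spint2, an inhibitor of membrane serine proteases, lay between 354 and 608 FPM (median 475) in NRK-52E and at 152, 102, 117, 130 and 97.2 FPM in NRK-49F, also without overlap. Tjp3, a scaffold of tight junctions, lay between 12.7 and 26.3 FPM (median 17.3) against 0.612, 0.854, 1.34, 0.758 and 1.72 FPM. Marveld2 (tricellulin), Spint1, Krt7 and the small GTPase Rab25 were higher in NRK-52E as well, although Rab25 overlapped, with up to 1.31 FPM, and its call was lost when sample group 3 alone was compared with group 4 or 6. Other epithelial markers went the opposite way. Krt8, a keratin of simple epithelia, lay between 195 and 260 FPM (median 212) in NRK-52E and at 619, 438, 592, 696 and 487 FPM in NRK-49F, a log2 difference of -1.35 ± 0.14 (edgeR adjusted p = 6.34e-09) with every NRK-49F sample above every NRK-52E sample. St14 (matriptase), with a mean of 2.46 ± 0.72 FPM (SD, n = 5) in NRK-49F, and the tubule transcription factor Pax8, with at most 0.833 FPM, were higher in NRK-49F too. Defining epithelial markers had counts near 0 in both lines. Cdh1 (E-cadherin) had at most 12 counts in any NRK-52E sample and at most 4 in any NRK-49F sample, Epcam had 0 in all 11 samples, and Krt18, the usual partner of Krt8, had at most 1 and 4. How well the annotation used for counting covers these genes was not tested, so counts near 0 are not shown to mean that the genes were silent.

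Of 25 fibroblast markers tested, 22 were higher in NRK-49F, 2 were higher in NRK-52E and 1 was not called, with a median log2 difference of -7.23, or -5.45 when genes at or under 3 counts in a line were set to the level of 3 counts. Col1a1, a chain of type I collagen, lay between 15.2 and 34.5 FPM (median 24.9) in NRK-52E and at 3185, 4492, 3251, 3455 and 4464 FPM in NRK-49F. Its partner chain Col1a2 lay between 0.0546 and 0.670 FPM (median 0.330) against 3159, 3983, 2930, 3078 and 3489 FPM. Both chains were thus abundant in NRK-49F and low or near the floor in NRK-52E. Lum, a proteoglycan that organises collagen fibrils, had no count in NRK-52E and a mean of 61.0 ± 13.4 FPM (SD, n = 5) in NRK-49F, at least 416-fold higher when set against the floor. Vim, the intermediate filament of mesenchymal cells, lay between 321 and 457 FPM (median 399) against 7194, 5537, 6699, 7534 and 6168 FPM, without overlap and with a log2 difference of -4.09 ± 0.13 (edgeR adjusted p = 3.55e-18). The 2 markers higher in NRK-52E were fibrillar collagens. Col3a1 lay between 1789 and 3077 FPM (median 2366) against 366, 520, 391.8, 448 and 439 FPM, and Col5a2 lay between 842 and 1322 FPM (median 1125) against 332, 483, 383, 356 and 439 FPM, each without overlap. Thy1, a surface marker of fibroblasts, had a mean of 0.0482 FPM in NRK-49F and no count in NRK-52E and was not tested. The NRK-49F label was thus met by most fibroblast markers, while the NRK-52E samples had few counts of Cdh1 and none of Epcam and held Col3a1.

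Markers of other cell types were low, apart from 2 leukocyte genes. Of 6 endothelial markers tested 1 was higher in NRK-52E and 3 in NRK-49F, and their summed level was between 3.30 and 6.01 FPM in NRK-52E and between 8.44 and 12.3 FPM in NRK-49F. Of 4 leukocyte markers 2 were higher in NRK-52E and 1 in NRK-49F, with sums between 66.2 and 178 FPM and between 295 and 343 FPM, carried mainly by the lysosomal gene Cd68, which averaged 229 FPM in NRK-49F and 4.15 FPM in NRK-52E, and by Cd14 with 81.8 and 110 FPM. Podocyte markers (1 higher in each line of 2 tested) and neural markers (1 higher in each line of 2) summed to at most 1.81 and 4.35 FPM. The part of such cells in the line differences was not tested.

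Promoters of the epithelial markers were searched for the E-box CAGGTG, the sequence to which Snail and Zeb repressors are known to bind, on both strands of the 250 bases before the start (RefSeq, build GRCr8). Of that family, Snai1, Snai2 and Zeb2 were higher in NRK-49F, Snai3 was higher in NRK-52E and Zeb1 was not called. Of the 11 tested epithelial markers 8 matched a promoter, and 7 of these (87.5%) held the motif, 5 of them higher in NRK-52E and 2 higher in NRK-49F. It stood in 14.8% of the 9287 promoters of tested genes and in 3 of 17 (17.6%) matched fibroblast markers. The list was drawn up from known epithelial markers, so the share, from only 8 promoters, may describe how it was made. The part of the Snail and Zeb factors in the line differences was not tested. Examples on the strand of the gene, with the motif in capitals, were taken from Lsr (chr1:95329479-95329524), Spint2 (chr1:93708134-93708179) and Tjp3 (chr7:9084385-9084423), higher in NRK-52E, and from Krt8 (chr7:135010528-135010573), higher in NRK-49F. The matches began 150, 68, 19 and 214 bases before the start, and a match is a description of these letters, not of a bound site.
Lsr (- strand): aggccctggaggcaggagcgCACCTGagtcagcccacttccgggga
Spint2 (- strand): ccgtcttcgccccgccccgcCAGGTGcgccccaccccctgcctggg
Tjp3 (+ strand): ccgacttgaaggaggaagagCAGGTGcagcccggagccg
Krt8 (- strand): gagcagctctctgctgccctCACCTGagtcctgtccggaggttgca

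Genes present in 1 line and at or under 3 counts in every sample of the other were common. There were 401 such genes for NRK-52E and 565 for NRK-49F, and 136 and 367 of them had a mean of at least 10 times the floor. In NRK-52E the highest was Ca13 (chromosome 2), a cytosolic carbonic anhydrase that interconverts carbon dioxide and bicarbonate. It lay between 56.1 and 72.7 FPM (median 58.9) in NRK-52E and at 0.051, 0, 0.111, 0 and 0.111 FPM in NRK-49F, which is at most 3 counts. Gpc3 (chromosome X), a proteoglycan of the cell surface, lay between 15.9 and 28.3 FPM (median 21.3) against 0.051, 0.061, 0.0742, 0 and 0 FPM. Both were therefore clearly present in all 6 NRK-52E samples and not detectable in NRK-49F at this depth. The others chosen by their level were the metabolic enzyme homologue Thnsl2, the endosomal kinesin Kif16b, Prxl2a, the receptor-type phosphatase Ptprq, Fbxl16 and the zinc finger gene Zscan18, with means between 20.6 and 27.7 FPM in NRK-52E and at most 3 counts in any NRK-49F sample.

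In NRK-49F the 8 highest genes of this kind had means between 187 and 1538 FPM. Mmp3 (chromosome 8), stromelysin, which degrades matrix, was at 1165, 1175, 1854, 2001 and 1494 FPM and at most at 0.11 FPM (2 counts) in NRK-52E. Vcam1 (chromosome 2), an adhesion molecule for leukocytes, was at 314, 344, 493, 433 and 426 FPM against at most 0.0873 FPM. Vcan (chromosome 2), the matrix proteoglycan versican, was at 268, 428, 427, 397 and 487 FPM against at most 0.0291 FPM. For each of these every NRK-49F sample stood far above any NRK-52E sample. Pdgfra (chromosome 14), the receptor through which platelet-derived growth factor acts on fibroblasts, was at 179, 330, 334, 297 and 380 FPM against at most 0.105 FPM. Prrx1 (chromosome 13), a mesenchymal homeobox factor, had no count in NRK-52E and was at 135, 205, 226, 200 and 250 FPM in NRK-49F, on average at least 1380-fold above the floor. Hsd11b1, which regenerates active glucocorticoid, the chemokine Ccl2 and the secreted protein Dkk3 had means of 284 ± 33.8, 201 ± 46.7 and 187 ± 14.1 FPM (SD, n = 5) in NRK-49F and at most 3 counts in NRK-52E.

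Among genes measured above the floor in every sample, those with the largest differences in favour of NRK-52E included genes of elastic matrix and other secreted proteins. Igfbp2, which binds insulin-like growth factors, lay between 954 and 2368 FPM (median 1548) in NRK-52E and at 7.24, 3.35, 10.5, 2.78 and 2.28 FPM in NRK-49F, with a log2 difference of 8.22 ± 0.88 (edgeR adjusted p = 8.31e-09). Eln, elastin, lay between 313 and 450 FPM (median 382) against 2.45, 1.22, 3.08, 1.48 and 1.28 FPM, with a log2 difference of 7.63 ± 0.64. Mfap5, a protein of the microfibrils on which elastin is laid down, lay between 489 and 699 FPM (median 588) against 5.96, 3.41, 5.23, 3.50 and 2.0 FPM. In all 3 the lines were separated by a wide gap. Tagln, an actin-binding protein of smooth muscle, lay between 129 and 187 FPM (median 155) against 1.48, 1.16, 1.00, 1.23 and 1.00 FPM (log2 difference 7.07 ± 0.47). The zinc finger factor Plagl1, the secreted proteins Wfdc1 and Sema3e, and Asmt, the last enzyme of melatonin synthesis, completed the 8, with log2 differences between 7.06 and 8.08.

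The 8 largest differences in favour of NRK-49F lay between -12.70 and -8.61 on the log2 scale. Spp1, osteopontin, a secreted phosphoprotein, lay between 0.552 and 1.57 FPM (median 0.933) in NRK-52E and at 7034, 5918, 7651, 7500 and 6603 FPM in NRK-49F, a log2 difference of -12.70 ± 0.77 (edgeR adjusted p = 2.23e-13). Fn1, fibronectin, lay between 4.88 and 12.6 FPM (median 7.99) against 5622, 11606, 8078, 7455 and 11193 FPM, a log2 difference of -9.98 ± 0.57. Serpine2, an inhibitor of thrombin and plasminogen activators, lay between 3.48 and 6.61 FPM (median 4.88) against 3047, 3187, 3380, 3363 and 3090 FPM, a log2 difference of -9.34 ± 0.22. These encode secreted proteins, and their RNA was high in all NRK-49F samples and low in all NRK-52E samples. Aldh3a1, an aldehyde dehydrogenase, lay between 1.88 and 6.32 FPM (median 2.80) against 5332, 4101, 4463, 5064 and 3790 FPM. The collagen chain Col8a1, the imprinted gene Peg10, the secreted protease Htra1 and the oxidase Aox1 were the others. In Peg10, NRK-49F replicate A042 stood at 42.9 FPM and the other 4 between 140 and 290 FPM.

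Genes of matrix and adhesion were grouped by family, and each count is read against the 36.6% and 38.9% of all genes called in either direction. Of 28 collagen chains tested, 13 were higher in NRK-52E and 14 in NRK-49F, with a median log2 difference of 0.21 that lay between -0.48 and 1.10 over the alternatives. The chains differed in both directions, also within type IV. The type VI chain Col6a1 lay between 0 and 0.386 FPM (median 0.157) in NRK-52E and at 1135, 1387, 930, 957 and 1094 FPM in NRK-49F, and Col6a2 and Col6a3 averaged 0.342 and 1.84 FPM in NRK-52E and 595 and 36.8 FPM in NRK-49F. Higher in NRK-52E besides Col3a1 and Col5a2 were Col14a1, with means of 156 against 18.6 FPM, Col4a5 with 477 against 92.7 FPM and Col20a1 with 394 against 44.5 FPM, while the basement membrane chains Col4a1 and Col4a2 were higher in NRK-49F with 257 and 265 FPM against 53.1 and 100 FPM. Of 28 matrix proteases and inhibitors, 23 were higher in NRK-49F and 4 in NRK-52E (median -2.83). Mmp2, gelatinase A, lay between 0 and 0.233 FPM (median 0.0814) against 1220, 1115, 1300, 1299 and 1238 FPM, so it was near the floor in every NRK-52E sample. Adamts10, a protease linked to microfibrils, was among the 4 others, between 437 and 1008 FPM (median 719) against 96.6, 138, 98.1, 99.1 and 119 FPM.

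Of 21 integrins and partners, 15 were higher in NRK-49F and 5 in NRK-52E (median -2.0). Itgb3, the beta chain of the vitronectin receptor, had no count in NRK-52E and a mean of 13.0 ± 5.56 FPM (SD, n = 5) in NRK-49F, at least 88.8-fold above the floor, and the collagen receptor chain Itga11 lay at 18.1, 29.9, 21.1, 23.5 and 29.8 FPM against at most 0.382 FPM. Itgb8, a chain that binds latent TGF-beta, went the other way, between 12.7 and 18.7 FPM (median 16.5) against 1.32, 3.54, 4.49, 2.74 and 5.06 FPM (log2 difference 2.22 ± 0.32). Of 11 genes of smooth muscle contraction, 8 were higher in NRK-52E and 2 in NRK-49F (median 2.68). Acta2, smooth muscle actin and the common marker of myofibroblasts, had a mean of 37.5 FPM in NRK-52E and 1.36 FPM in NRK-49F, and Tpm1 had 1275 against 199 FPM. The tropomyosin Tpm2 was an exception with a log2 difference of -1.13 ± 0.18.

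Junction and filament genes did not divide by line in 1 direction. Of 15 genes of desmosomes and adherens junctions, 6 were higher in NRK-52E and 8 in NRK-49F (median -0.94, but 0.78 over members with 10 counts or more in every sample). Pkp2, a plaque protein of desmosomes, lay between 52.9 and 81.9 FPM (median 67.6) against 2.45, 0.671, 1.63, 1.77 and 2.0 FPM (log2 difference 5.29 ± 0.26), and Cdh3, P-cadherin, between 234 and 318 FPM (median 273) against 82.6, 92.0, 77.0, 83.3 and 81.0 FPM. The mesenchymal cadherin Cdh11 was at 35.9, 67.3, 73.4, 67.6 and 84.6 FPM in NRK-49F and at most 0.106 FPM in NRK-52E. Of 8 claudins tested, 4 were higher in NRK-52E and 1 in NRK-49F (median 1.37, or 0.33 with the floor). Cldn15, which forms cation pores in tight junctions, lay between 33.2 and 115 FPM (median 63.8) against 1.17, 1.10, 1.97, 0.577 and 1.17 FPM, and Cldn1 had no count in NRK-52E and a mean of 1.70 FPM in NRK-49F. Of 10 keratins tested among 47 in the table, 6 were higher in NRK-52E and 4 in NRK-49F, with a median of 2.09 or, with the floor, 0.44. Krt80 was higher in NRK-52E (median 19.4 FPM, against at most 0.854 FPM), while Krt15 and Krt13, keratins of stratified epithelia, had means of 38.3 and 24.8 FPM in NRK-49F and 1.12 and 0.24 FPM in NRK-52E. Within single pairs of sample groups, the claudins and keratins called higher in NRK-52E fell to as few as 2 and 3.

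**Figure D2:**
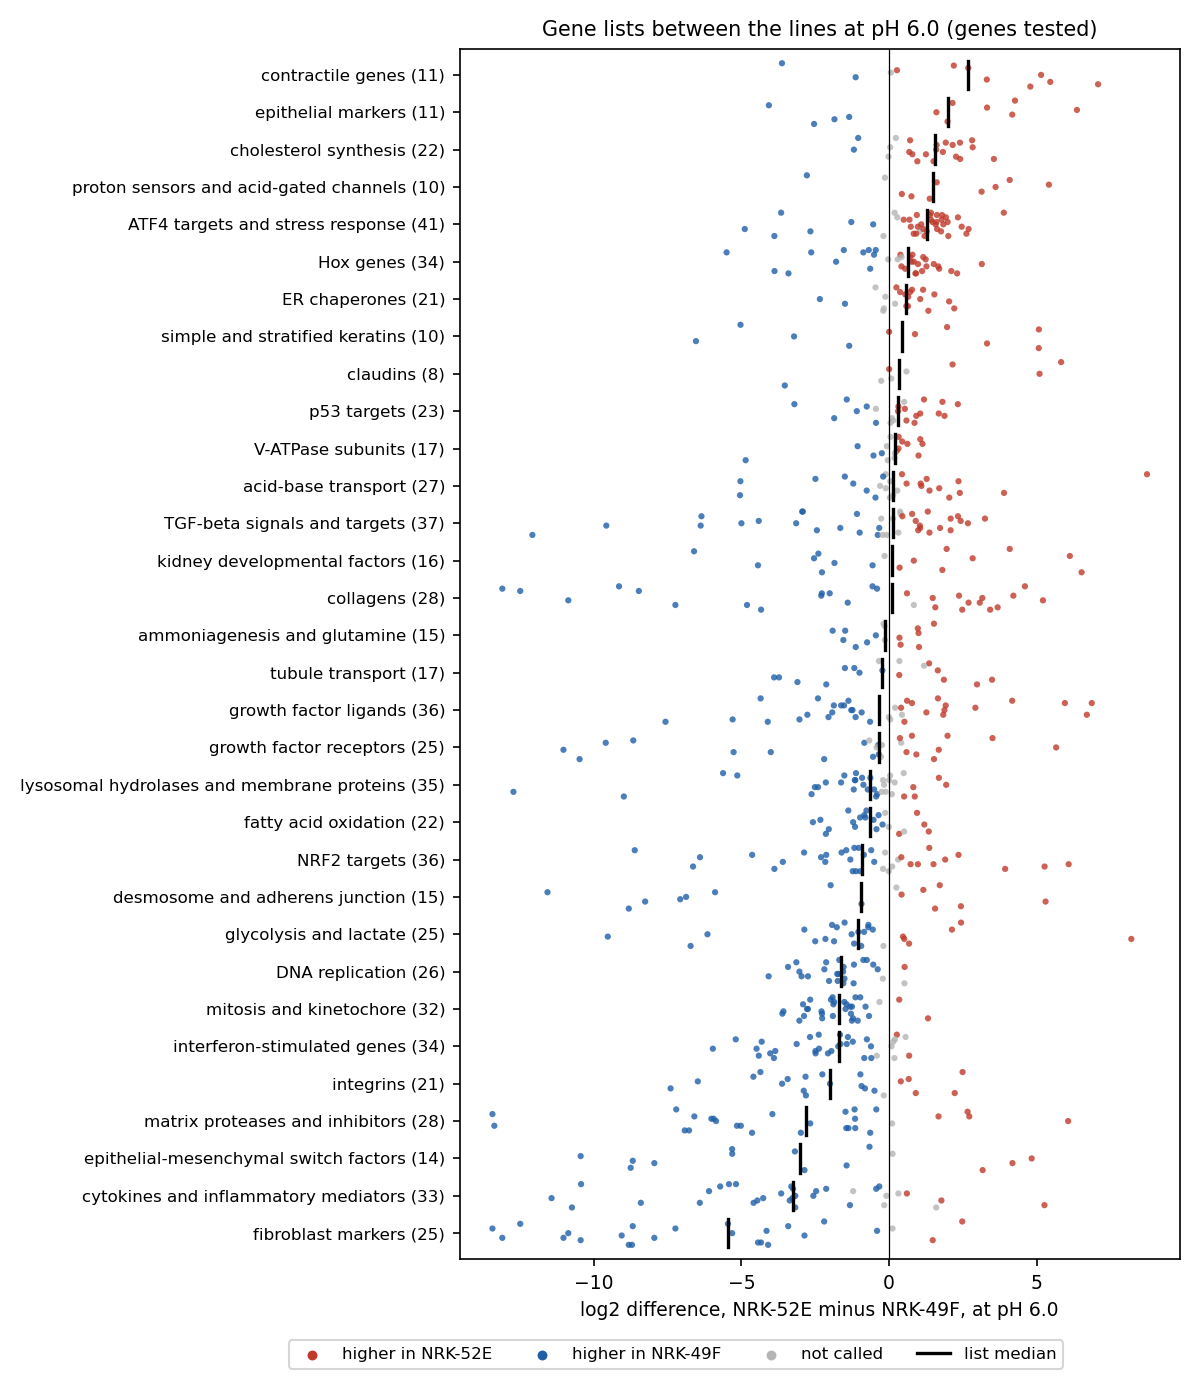
Log2 difference between the lines at pH 6.0 (horizontal axis, NRK-52E minus NRK-49F) for every tested member of the gene lists with at least 7 tested members, in rows ordered by their median (bar). Points are coloured by their call, members at or under 3 counts in a line are drawn at their level over 3 counts, and the medians here use those values. Contractile genes stand furthest to the right and fibroblast markers, at -5.45, furthest to the left.

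Factors known to switch cells between epithelial and mesenchymal states were mostly higher in NRK-49F, 10 of 14 tested, against 3 in NRK-52E (median -3.03). Twist1 lay between 0.0546 and 0.408 FPM (median 0.203) in NRK-52E and at 101, 83.1, 90.9, 102 and 84.5 FPM in NRK-49F. Zeb2 and Snai2 had means of 14.8 and 19.5 FPM in NRK-49F and 0.0586 and 0.483 FPM in NRK-52E. Zeb1, with 45.2 FPM in NRK-52E and 41.7 FPM in NRK-49F, was not called. Sox9 had no count in NRK-52E and was at 65.9, 67.0, 58.1, 56.6 and 67.1 FPM in NRK-49F, at least 429-fold above the floor. The 3 genes higher in NRK-52E were Klf5 and Grhl1, factors of epithelial programmes, and Snai3. Klf5 lay between 98.9 and 130 FPM (median 114) against 6.17, 6.52, 6.79, 6.39 and 6.06 FPM, a log2 difference of 4.17 ± 0.16 (edgeR adjusted p = 7.43e-17).

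Of 34 Hox genes, which record the position along the body axis, 20 were higher in NRK-52E and 11 in NRK-49F (median 0.62), and 13 and 14 were higher in NRK-52E when sample group 3 alone was compared with groups 4 and 6. Hoxd11, known from kidney development, was at 6.42, 5.12, 6.01, 8.59 and 7.06 FPM in NRK-49F and at most 0.0873 FPM in NRK-52E, while Hoxd3 lay between 6.12 and 17.6 FPM (median 11.6) against 1.83, 3.66, 1.82, 2.42 and 4.06 FPM. Of 16 developmental factors of the kidney, 8 were higher in NRK-52E and 7 in NRK-49F (median 0.10, between -0.55 and 0.60 over the alternatives). Emx2, needed for the ureteric bud, lay between 12.6 and 14 FPM (median 12.9) against 0, 0, 0, 0.0361 and 0.111 FPM. Irx3, a factor of nephron segments, had no count in NRK-52E and was at 12.7, 14.7, 13.1, 16.2 and 14.5 FPM in NRK-49F, at least 96.9-fold above the floor. Of 17 genes of tubule transport, 6 were higher in NRK-52E and 8 in NRK-49F (median -0.23, between -0.999 and 0.44 over the alternatives). Aqp1, the water channel of the proximal tubule, was lower in NRK-52E, between 24.2 and 118 FPM (median 62.2) against 1263, 1090, 889, 908 and 794 FPM, and within NRK-52E sample group 1 averaged 106 and group 3 27.3 FPM. Atp1b1, the beta subunit of the sodium pump, lay between 66.1 and 176 FPM (median 110) against 23.2, 28.1, 34.7, 35.3 and 35.9 FPM.

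Genes that move or sense acid did not differ as a block in 1 direction, except for the sensors. Counts of these and the following lists at pH 6.0 are read beside all genes tested. Of those, 36.6% were higher in NRK-52E and 38.9% in NRK-49F. Of 27 acid-base transporters and carbonic anhydrases, 12 were higher in NRK-52E and 8 in NRK-49F (median 0.13), and between 8 and 14 were higher in NRK-52E in single pairs of sample groups. Bsg, basigin, the chaperone that brings lactate and proton carriers to the membrane, lay between 2490 and 3704 FPM (median 3112) against 736, 536, 652, 667 and 495 FPM, a log2 difference of 2.35 ± 0.16 (edgeR adjusted p = 1.68e-12) without overlap. Slc4a11, a membrane transporter of protons and ammonia, lay between 9.37 and 16.1 FPM (median 12.7) against 0.662, 1.16, 0.556, 1.12 and 0.833 FPM. The sodium bicarbonate carriers of the same family were split, since Slc4a4 and Slc4a7 were higher in NRK-49F and Slc4a10, with means of 8.61 against 4.11 FPM, was higher in NRK-52E, while Slc4a5 and Slc4a8 were too low to be tested. Slc4a4, the carrier of the proximal tubule, had no count in NRK-52E and was at 1.73, 7.56, 5.30, 2.63 and 7.0 FPM, at least 33-fold above the floor on average, and Slc4a7 lay between 5.33 and 9.21 FPM (median 7.97) against 20.03, 57.3, 49.2, 25.7 and 65.8 FPM.

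Of 17 subunits of the vacuolar proton pump, 8 were higher in NRK-52E, 4 in NRK-49F and 5 were not called, with a median log2 difference of 0.19, and 5 were higher in NRK-52E when sample group 3 was compared with group 4. Atp6ap2, the accessory subunit also known as the prorenin receptor, lay between 182 and 325 FPM (median 245) against 116, 110, 118, 113 and 108 FPM, a log2 difference of 1.13 ± 0.11. Atp6v1c2, a form of the C subunit found in kidney and lung, was at 4.38, 6.77, 6.45, 6.21 and 8.67 FPM in NRK-49F and between 0.11 and 0.372 FPM in NRK-52E. Of 10 proton sensors and acid-gated channels, 8 were higher in NRK-52E and 1 in NRK-49F (median 1.49), although most were low. Trpv4, a cation channel, lay between 1.54 and 3.14 FPM (median 2.48) and the potassium channel Kcnk5 between 4.14 and 6.35 FPM (median 5.38), with at most 0.061 and 0.217 FPM in NRK-49F. The proton-sensing receptor Gpr4 lay between 0.345 and 2.02 FPM (median 1.50) in NRK-52E and at most at 0.183 FPM in NRK-49F. Ptk2b (Pyk2), a kinase known from acid signalling in tubule cells, averaged 98.9 FPM in NRK-52E and 8.17 FPM in NRK-49F.

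Of 15 genes of glutamine use and ammonia production, 6 were higher in each line and 3 were not called (median -0.16). Got1, an aspartate aminotransferase, lay between 127 and 151 FPM (median 134) against 72.8, 67.6, 72.4, 71.5 and 58.2 FPM, a log2 difference of 0.99 ± 0.07 (edgeR adjusted p = 3.09e-12). Glud1, glutamate dehydrogenase, which frees ammonia from glutamate, lay between 215 and 235 FPM (median 225) against 582, 665, 651, 709 and 683 FPM, a log2 difference of -1.55 ± 0.07. These 2 enzymes thus differed in opposite directions. Gls2, a glutaminase known from liver, and the glutamine transporter Slc38a1 were higher in NRK-49F, with log2 differences of -1.49 ± 0.17 and -1.91 ± 0.15.

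Targets of ATF4, the transcription factor that the integrated stress response uses to raise amino acid supply and tRNA charging, were mostly higher in NRK-52E at pH 6.0. Of 41 tested, 31 were higher in NRK-52E, 6 in NRK-49F and 4 were not called, and the median log2 difference was 1.27, against 0.84 for the same genes at pH 7.4. In the 4 single pairs of sample groups between 27 and 31 were higher in NRK-52E. Promoters of 6 members are shown that hold the motif TGATGNAA, a core of the element to which ATF4 binds with C/EBP factors. These 6 had the largest log2 differences of the 10 members with the motif, and all 10 were higher in NRK-52E. The directions of other tested genes with the motif were not counted, so this is not shown to go with the motif. On either strand of the 250 bases before the start (RefSeq, build GRCr8) the motif stood in 10 of the 30 members with an entry (33.3%), against 1.82% of the 9287 promoters of tested genes and 3.21% of all 24206 promoters. Of the 20 members without it, 14 were higher in NRK-52E, 4 in NRK-49F and 2 were not called. The list itself was drawn up from known targets, so the share describes how it was made. Capitals mark the match, which began 167, 21, 143, 30, 17 and 131 bases before the start in Chac1 (chr3:126795944-126795991), Trib3 (chr3:161275534-161275574), Fgf21 (chr1:105221492-105221539), Slc7a1 (chr12:11664438-11664485), Mars1 (chr7:65023754-65023790) and Pycr1 (chr10:106420916-106420963).
Chac1 (+ strand): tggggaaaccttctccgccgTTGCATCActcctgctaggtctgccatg
Trib3 (- strand): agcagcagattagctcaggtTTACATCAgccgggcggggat
Fgf21 (- strand): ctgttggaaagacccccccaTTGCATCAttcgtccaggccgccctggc
Slc7a1 (+ strand): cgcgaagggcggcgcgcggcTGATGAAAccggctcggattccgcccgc
Mars1 (- strand): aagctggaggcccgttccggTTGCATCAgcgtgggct
Pycr1 (- strand): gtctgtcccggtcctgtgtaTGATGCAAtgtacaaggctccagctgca

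Of the members shown above, Chac1, which degrades glutathione, lay between 42.9 and 58.1 FPM (median 50.7) in NRK-52E and at 9.17, 7.99, 7.08, 9.38 and 7.61 FPM in NRK-49F, a log2 difference of 2.61 ± 0.14 (edgeR adjusted p = 1.70e-14) without overlap. Trib3, a pseudokinase induced by ATF4, lay between 77.3 and 181 FPM (median 122) against 39.8, 24.4, 33.5, 31.7 and 28.3 FPM, with sample group averages of 79.4 FPM in group 1 and 169 FPM in group 3. Slc7a1, a carrier of cationic amino acids, lay between 83.3 and 116 FPM (median 106) against 16.4, 22.9, 16, 15.3 and 24.1 FPM. All 3 were thus higher in every NRK-52E sample. Eprs, which charges the tRNAs of glutamate and proline, lay between 822 and 1025 FPM (median 913) against 147, 145, 144, 133 and 143 FPM, a log2 difference of 2.69 ± 0.10. The methionyl- and alanyl-tRNA synthetases Mars1 and Aars1 differed by 1.38 ± 0.09 and 1.20 ± 0.11, the proline enzyme Pycr1 by 1.41 ± 0.13, and the secreted hormone Fgf21, at most 4.46 FPM, by 3.88 ± 0.50. Members higher in NRK-49F included Stc2, a secreted glycoprotein, with between 3.00 and 5.08 FPM (median 4.14) against 56.3, 52.6, 48.3, 50.6 and 47.1 FPM, the cystine carrier Slc7a11 and Aldh1l2 of mitochondrial folate metabolism.

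**Figure D3:**
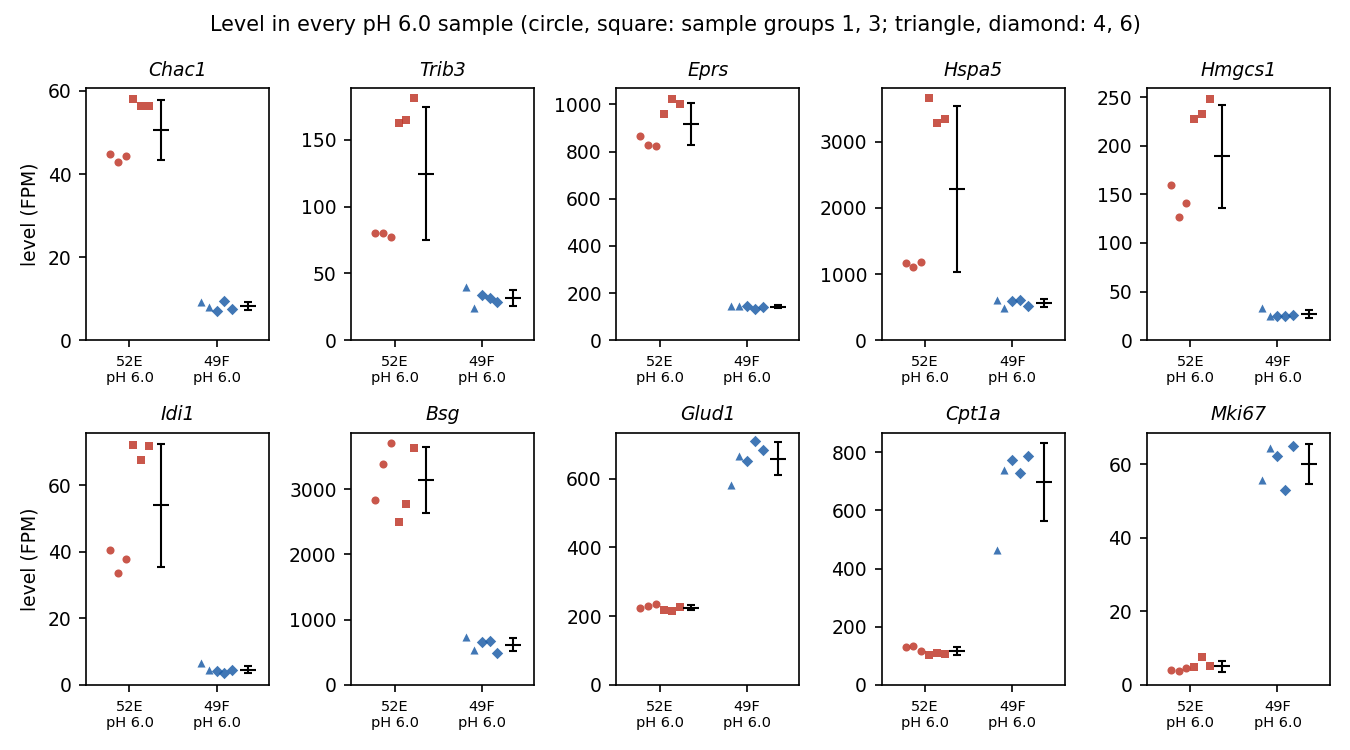
Level in FPM (vertical axes, from 0) of 10 genes in each pH 6.0 sample of NRK-52E (red, circles sample group 1, squares group 3) and NRK-49F (blue, triangles group 4, diamonds group 6), with the mean and SD as bars. The lines do not overlap in any of the 10 genes. The squares stand apart from the circles in Trib3, Hspa5 and Idi1 and also in others, for example Chac1, Eprs and Hmgcs1.

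Of 21 chaperones and folding enzymes of the endoplasmic reticulum, 14 were higher in NRK-52E, 2 in NRK-49F and 5 were not called, with a median of 0.58 at pH 6.0 and 0.01 at pH 7.4. Hspa5 (BiP), the main chaperone of that compartment, lay between 1110 and 3656 FPM (median 2240) against 602, 491, 599, 604 and 516 FPM, a log2 difference of 2.03 ± 0.26 (edgeR adjusted p = 2.16e-07). Within NRK-52E, sample group 1 averaged 1154 FPM and sample group 3 averaged 3432 FPM, both above every NRK-49F sample. Herpud1, which serves the removal of misfolded proteins, was more even, between 187 and 240 FPM (median 207) against 54.4, 40.9, 46.1, 47.7 and 41 FPM. The count of the list depended on the sample group, with 7 members higher in NRK-52E in group 1 against group 4 and 15 in group 3 against group 6. P4hb, an isomerase that also serves collagen hydroxylation, was higher in NRK-49F, between 1261 and 1636 FPM (median 1380) against 4187, 3466, 4220, 4348 and 3688 FPM.

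Targets of NRF2, the factor of the oxidant and electrophile response, were higher in NRK-49F in 21 of 36 tested and in NRK-52E in 10 (median -0.92). Akr1b8, an aldo-keto reductase, lay between 18.4 and 53.9 FPM (median 31.4) against 5669, 3196, 3074, 2875 and 2343 FPM, with replicate A042 above the rest. Glutathione transferase Gsta4 went the other way, between 78.4 and 129 FPM (median 97.2) against 2.75, 1.95, 3.63, 2.42 and 2.0 FPM, as did the epoxide hydrolase Ephx1, with averages of 131 FPM in sample group 1 and 315 FPM in group 3 against at most 17.6 FPM. Of 23 targets of p53, 12 were higher in NRK-52E, 6 in NRK-49F and 5 were not called, with a median of 0.31 at pH 6.0 and -0.71 at pH 7.4. The split depended on the sample group, from 10 higher in NRK-52E and 8 in NRK-49F in group 1 against group 4 to 14 and 4 in group 3 against group 6. Tp53inp1, a promoter of stress-induced autophagy and death, lay between 9.46 and 37.0 FPM (median 21.5) against 1.94, 6.65, 4.64, 3.28 and 5.28 FPM, and the death receptor Fas between 2.28 and 5.97 FPM (median 4.26) against 39.7, 32.1, 40.7, 40.7 and 36.7 FPM.

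Genes of cholesterol synthesis were higher in NRK-52E in 17 of 22 tested and in NRK-49F in 2, with a median log2 difference of 1.55 at pH 6.0 and -0.27 at pH 7.4. Hmgcs1, which makes the substrate of the rate-limiting reductase, lay between 127 and 248 FPM (median 193) against 33.6, 25.2, 25.2, 24.8 and 26.3 FPM, a log2 difference of 2.81 ± 0.24 (edgeR adjusted p = 1.49e-10). Idi1, an isomerase of isoprenoid synthesis, lay between 33.6 and 72.1 FPM (median 54) against 6.52, 4.51, 4.15, 3.50 and 4.50 FPM, a log2 difference of 3.54 ± 0.33. Fdft1, squalene synthase, lay between 187 and 224 FPM (median 200) against 38.7, 29.0, 25.3, 26.6 and 22.3 FPM. The lines did not overlap in any of these. In single pairs of sample groups, between 16 and 19 members were higher in NRK-52E. The 2 exceptions were Mvk, mevalonate kinase, with a log2 difference of -1.05 ± 0.14, and Hsd17b7, whose lines overlapped and whose call was lost in sample group 3 against group 4.

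Genes of glycolysis and lactate handling were higher in NRK-49F in 18 of 25 tested and in NRK-52E in 6 (median -1.04). Pfkp, the platelet form of phosphofructokinase, lay between 1.54 and 6.84 FPM (median 3.70) against 309, 267, 300, 310 and 277 FPM, and Ldhb, a lactate dehydrogenase subunit, was at most at 0.221 FPM against 66.2, 44.6, 59.97, 61 and 46.6 FPM. Pdk4, which shuts pyruvate out of the mitochondrial cycle, was higher in NRK-52E, between 21.3 and 34.4 FPM (median 29.0) against 0, 0.122, 0.148, 0.0722 and 0.111 FPM. Fatty acid oxidation genes were higher in NRK-49F in 15 of 22 and in NRK-52E in 4 (median -0.65). Cpt1a, the liver form of the carnitine transferase that admits fatty acids to mitochondria, lay between 103 and 134 FPM (median 113) against 464, 738, 772, 728 and 785 FPM, and the muscle form Cpt1b went the other way with a log2 difference of 1.34 ± 0.20. Of 35 lysosomal hydrolases and membrane proteins, 21 were higher in NRK-49F and 5 in NRK-52E (median -0.64). The cathepsins Ctsz and Ctsf were near or at 0 in NRK-52E and at means of 73.8 ± 17.4 and 450 ± 48.2 FPM (SD, n = 5) in NRK-49F, whereas Ctsk, the cathepsin known from osteoclasts, lay between 9.43 and 19 FPM (median 11.2) against 3.06, 2.50, 4.04, 3.57 and 4.00 FPM.

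Genes of signals between cells differed in both directions, and their counts are read beside the same 36.6% and 38.9% of all genes. Of 36 growth factor ligands, 14 were higher in NRK-52E and 18 in NRK-49F (median -0.33). Pdgfb, a chain of platelet-derived growth factor, lay between 8.49 and 22.9 FPM (median 13.8) in NRK-52E and at 0.153, 0.244, 0.223, 0 and 0.111 FPM in NRK-49F, and Fgf18 lay between 26.8 and 56.8 FPM (median 42.8) against at most 0.853 FPM. In NRK-49F, Fgf10 and Gdnf, known as signals of mesenchyme to epithelium, were at means of 5.76 and 2.99 FPM with no count in NRK-52E, at least 39.2-fold and 20.4-fold above the floor, and Angpt1, the ligand of the Tie2 receptor, at 27.8 ± 4.66 FPM (SD, n = 5). Of 25 growth factor receptors, 9 were higher in NRK-52E and 11 in NRK-49F (median -0.35). Erbb3, a receptor for neuregulin, lay between 14.3 and 21.8 FPM (median 18.4) against 0, 0.732, 0.593, 0.18 and 0.333 FPM, and Egfr, the receptor of epidermal growth factor, between 23.8 and 29.9 FPM (median 24.8) against 4.74, 6.89, 7.64, 5.02 and 8.78 FPM. The receptor kinases Axl and Ror2 stood at means of 257 and 113 FPM in NRK-49F and 0.155 and 0.0266 FPM in NRK-52E. The receptor Pdgfra was thus found in NRK-49F and the ligand Pdgfb in NRK-52E. The related receptor Pdgfrb was found in both lines, with between 185 and 419 counts in NRK-52E and between 720 and 1345 in NRK-49F.

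Of 33 cytokines and inflammatory mediators, 25 were higher in NRK-49F and 3 in NRK-52E (median -3.36, or -3.25 with the floor). Cxcl12, a chemokine of stromal cells, was at 44.5, 62.7, 41.4, 55.2 and 44.0 FPM in NRK-49F and had at most 1 count in any NRK-52E sample. Higher in NRK-52E were the complement protein C3, between 10.7 and 17.5 FPM (median 14.8) against 3.47, 2.93, 4.78, 5.23 and 4.50 FPM, Tnfsf18, and Lif, a cytokine of the interleukin 6 family, with a log2 difference of 0.60 ± 0.13 that was not called in sample group 1 against group 6. Of 34 interferon-stimulated genes, 26 were higher in NRK-49F and 2 in NRK-52E (median -1.69). Usp18, a brake on interferon signalling, lay between 1.23 and 2.94 FPM (median 1.84) against 108, 115, 142, 138 and 121 FPM, and the antiviral Mx1 had no count in NRK-52E and was at 1.27, 1.95, 4.27, 4.11 and 4.00 FPM. Ifi44l, with a log2 difference of 0.68 ± 0.14, was higher in NRK-52E except in sample group 1 against group 6, where the call was lost. Of 37 signals and targets of TGF-beta, 15 were higher in each line (median 0.13). Grem1, a secreted BMP antagonist, was at most at 0.408 FPM against 660, 745, 688, 716 and 724 FPM. Id1, a target of BMP signals, was higher in NRK-52E, between 63.9 and 210 FPM (median 118) against 18.4, 14.1, 11.9, 12.6 and 9.55 FPM.

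Genes of cell division were higher in NRK-49F at pH 6.0. Of 32 genes of mitosis and the kinetochore, 29 were higher in NRK-49F and 2 in NRK-52E, with a median log2 difference of -1.69 at pH 6.0 and -0.74 at pH 7.4. Mki67, which marks cycling cells, lay between 3.71 and 7.67 FPM (median 4.74) against 55.7, 64.3, 62.3, 52.9 and 64.9 FPM, a log2 difference of -3.58 ± 0.22 (edgeR adjusted p = 3.39e-13) without overlap. Birc5, survivin, lay between 0.850 and 4.71 FPM (median 1.48) against 35.5, 18.7, 22.7, 27.5 and 16.7 FPM. The 2 members higher in NRK-52E were Cdc20, an activator of the anaphase complex, with 1.31 ± 0.24, and the kinesin Kif23 with 0.34 ± 0.08. Of 26 genes of DNA replication, 23 were higher in NRK-49F and 1 in NRK-52E (median -1.62, and -0.66 at pH 7.4). Rrm2, a subunit of ribonucleotide reductase, lay between 3.11 and 12.5 FPM (median 7.27) against 94.8, 78.4, 75.8, 76.6 and 69.3 FPM, and Ccne2, cyclin E2, the single member higher in NRK-52E, differed by 0.52 ± 0.13 and lost its call in sample group 3 against group 4 or 6. Between 26 and 30 of the mitosis genes were higher in NRK-49F in single pairs of sample groups.

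To tell which line differences were particular to pH 6.0, the difference at pH 6.0 was tested against the difference at pH 7.4, where 10170 genes (68.8%) were called between the lines. The change was called for 6120 genes (41.4%), of which 2476 (16.8%) moved towards NRK-52E and 3644 (24.7%) towards NRK-49F. The same direction was called at both pH values for 3870 genes higher in NRK-52E and 4129 higher in NRK-49F, and among these 2485 differences were wider and 630 narrower at pH 6.0. The median absolute log2 difference was 0.82 at pH 6.0 and 0.60 at pH 7.4. In 3 pH 7.4 libraries, genes seen in the other line alone stood at over 1% of their level there. Without these 3 libraries the medians were 0.82 and 0.60 too, with 1834 differences wider and 566 narrower. A call at pH 6.0 without one at pH 7.4 was found for 2591 genes, but the change itself was called for only 1583 of these. In 565 genes the line difference turned, 257 of them being higher in NRK-52E at pH 6.0 and 308 higher in NRK-49F. Without the 3 libraries, 9158 genes were called at pH 7.4, the change was called for 5069 genes, 2024 towards NRK-52E and 3045 towards NRK-49F, and 405 genes turned, 178 and 227 in the same order. A call at pH 6.0 alone was then found for 3158 genes, with the change called for 1594, and the same direction at both pH values for 3575 and 3852. The sample groups of a line were shared by its pH values, and with sample group as a fixed term, which takes the pH change within sample groups, the change was called for 6631 genes, of which 6081 were called in the same direction without it. Summing the counts of each sample group and pH, which leaves 2 sums per condition, called 2538 changes and 197 turned genes.

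**Figure D4:**
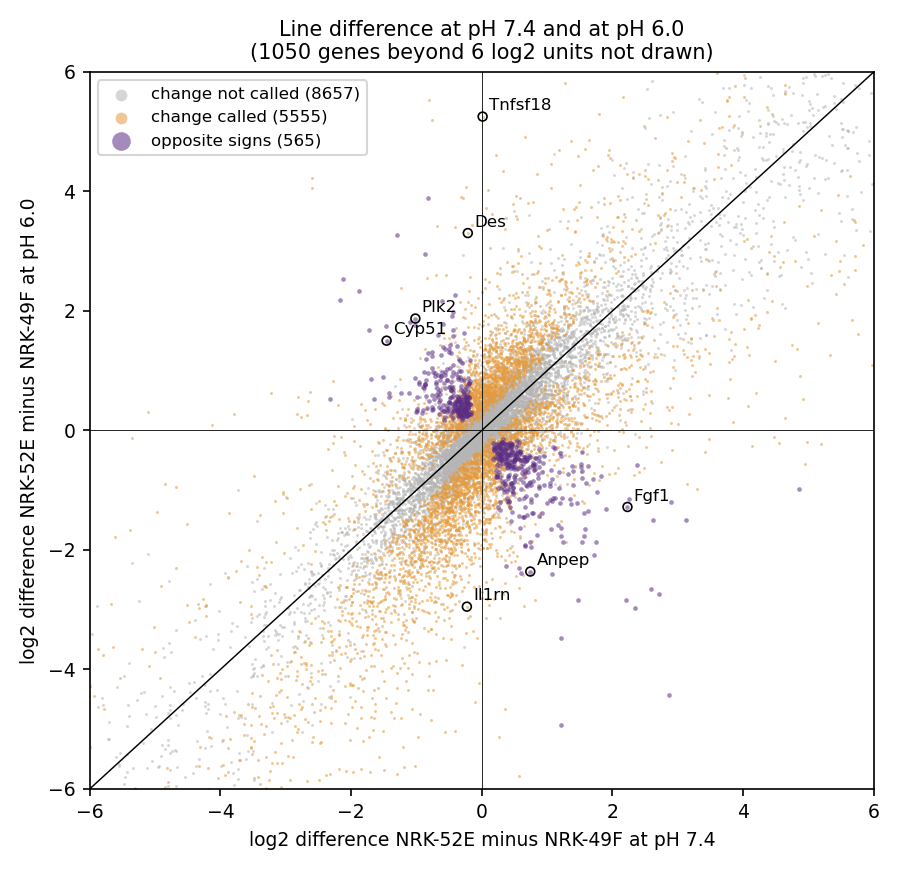
Log2 difference between the lines (NRK-52E minus NRK-49F) at pH 7.4 (horizontal axis) and at pH 6.0 (vertical axis) for each tested gene within 6 log2 units, 1050 genes lying beyond, with a line of equality. Orange marks 5555 genes with a called change in 1 direction and purple the 565 genes with opposite differences (numbers over all tested genes), such as Cyp51 and Plk2 in the upper left and Fgf1 and Anpep in the lower right.

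The list medians at pH 7.4 given above were 0.92 for ATF4 targets, 0.0981 for ER chaperones, -0.88 for p53 targets, -0.20 for cholesterol synthesis, -0.64 for mitosis and -0.69 for DNA replication without the 3 libraries. The changes of the lists are read beside the 16.8% and 24.7% of all genes that changed in each direction. For cholesterol synthesis, 16 of 22 members changed towards NRK-52E and 0 towards NRK-49F, and for DNA replication 0 of 26 changed towards NRK-52E and 18 towards NRK-49F. Both pairs of counts were the same without the 3 libraries. For p53 targets, 17 of 23 moved towards NRK-52E and 2 towards NRK-49F (14 and 0 without the 3 libraries), for ER chaperones 11 of 21 and 1 (9 and 1), and for mitosis genes 1 of 32 and 17 (0 and 16). For ATF4 targets the counts were 18 of 41 towards NRK-52E and 4 towards NRK-49F, but 11 and 3 without the 3 libraries and 7 and 2 in sample group 1 against group 4. For NRF2 targets they were 11 and 13 of 36 (10 and 11 without the 3 libraries), for interferon-stimulated genes 4 and 12 of 34 (4 and 11), and for glycolysis genes 3 and 12 of 25 (3 and 9). For fatty acid oxidation genes they were 1 and 9 of 22 (1 and 8), for lysosomal genes 6 and 11 of 35 (6 and 9), and for TGF-beta signals and targets 12 and 8 of 37 (11 and 6).

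Among genes that turned in favour of NRK-52E at pH 6.0, large changes were those of the sterol demethylase Cyp51, of 2 p53 targets, Plk2 and Ccng1, and of the fatty acid desaturase Fads2. Cyp51 lay between 158 and 311 FPM (median 224) in NRK-52E and at 111, 72.8, 69.8, 79.2 and 69.2 FPM in NRK-49F at pH 6.0, but at pH 7.4 at most at 63.5 FPM in NRK-52E and at least at 96.9 FPM in NRK-49F. The lines thus did not overlap at either pH but changed places, with log2 differences of 1.50 ± 0.22 and -1.46 and a change of 2.96 ± 0.30 (edgeR adjusted p = 5.5e-08). Fads2 lay between 73 and 145 FPM (median 111) against 20.03, 28.1, 23.8, 25.9 and 23.6 FPM at pH 6.0, and its change was 2.78 ± 0.28. Plk2, a kinase of the stress response, changed by 2.89 ± 0.35, and its NRK-52E average was 31.0 FPM in sample group 1 and 81.7 FPM in group 3 at pH 6.0. Ccng1, cyclin G1, changed by 2.85 ± 0.32, but at pH 6.0 its lines overlapped, with averages of 283 FPM in sample group 1 and 750 FPM in group 3 against 346, 329, 383, 362 and 368 FPM. Its call at pH 6.0 (adjusted p = 0.0391) was lost without any 1 of the NRK-52E samples A036, A037 and A038 or of the NRK-49F samples at pH 6.0, and without the 3 pH 7.4 libraries (edgeR adjusted p = 0.0533). It was also lost with sample group as a random block (limma voom adjusted p = 0.121), with counts summed per sample group (edgeR adjusted p = 0.149) and in the pH 6.0 samples alone (edgeR adjusted p = 0.110), and it turned, with -0.26 and -0.39, in sample group 1 against groups 4 and 6.

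Among genes that turned in favour of NRK-49F, Fgf1, acidic fibroblast growth factor, lay between 6.40 and 11.3 FPM (median 8.04) in NRK-52E and at 22, 22.4, 19.1, 20.5 and 18.8 FPM in NRK-49F at pH 6.0, while at pH 7.4 NRK-52E was at least at 52 FPM and NRK-49F at most at 18 FPM. Its change was -3.51 ± 0.22 (edgeR adjusted p = 2.9e-11). Anpep, aminopeptidase N of the proximal tubule brush border, lay between 1.21 and 5.39 FPM (median 3.50) against 13.7, 19.6, 16.4, 19 and 21.2 FPM, and at pH 7.4 NRK-52E was at least at 28.4 FPM, above every NRK-49F sample. In both genes the NRK-49F levels of the 2 pH values lay near each other and the NRK-52E levels far apart. Ampd3, an AMP deaminase, changed by -5.45 ± 0.45, with 47.8, 63.5, 38.5, 30.5 and 43.4 FPM in NRK-49F at pH 6.0 and at most 3.69 FPM at pH 7.4. Mmd and the Wnt receptor Fzd8 changed by -3.41 ± 0.16 and -3.00 ± 0.23.

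**Figure D5:**
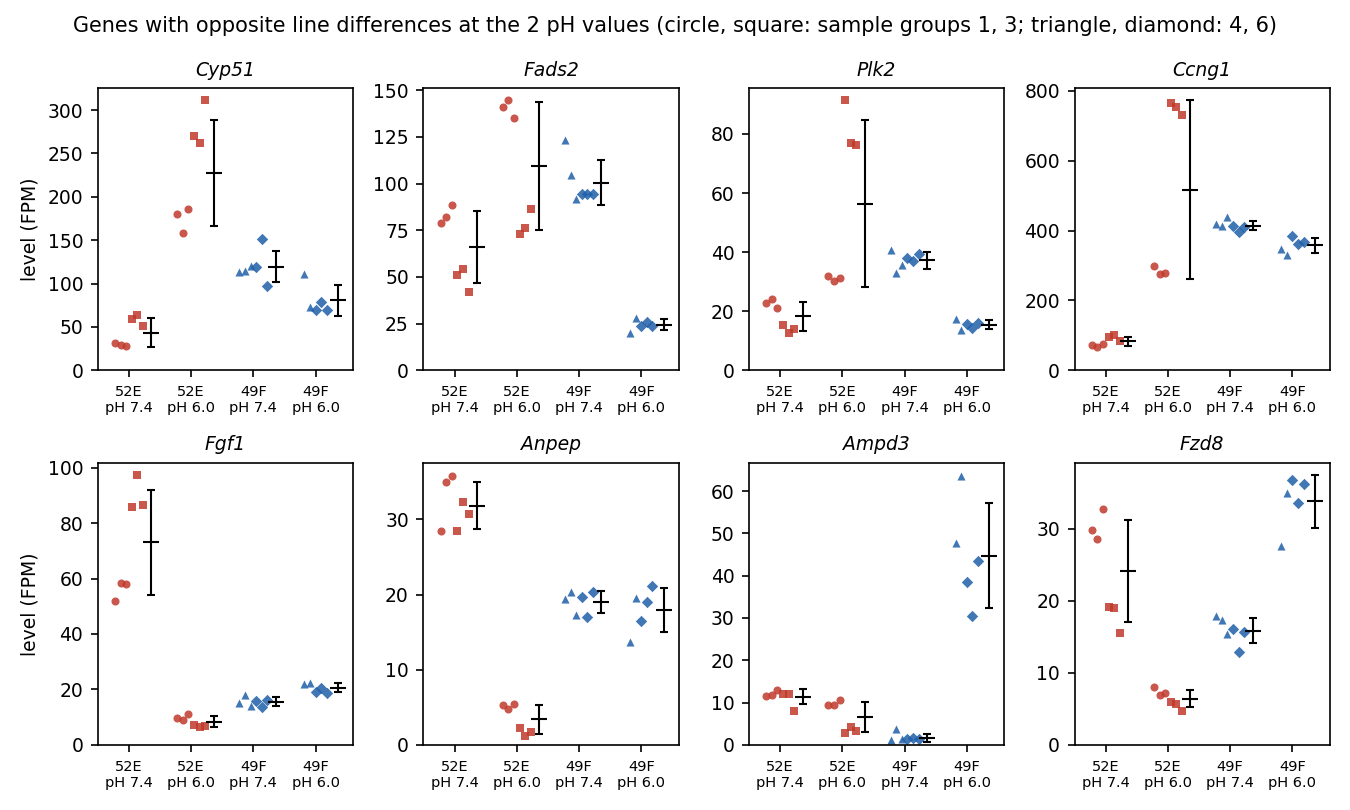
Level in FPM (vertical axes, from 0) of 8 genes whose line difference turned between the pH values, in each sample of NRK-52E (red, circles sample group 1, squares group 3) and NRK-49F (blue, triangles group 4, diamonds group 6), with mean and SD as bars. Cyp51, Fads2, Plk2 and Ccng1 were on average higher in NRK-52E at pH 6.0 and in NRK-49F at pH 7.4, and Fgf1, Anpep, Ampd3 and Fzd8 the reverse.

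A further 284 genes averaging 5 FPM or more differed by more than 2-fold at pH 6.0, had an absolute log2 difference under 0.25 at pH 7.4 and a called change, 120 of them higher in NRK-52E and 164 in NRK-49F (121 and 158 without the 3 libraries). Nes, nestin, an intermediate filament of progenitor and muscle cells, lay between 11.7 and 35.3 FPM (median 17.4) against 1.38, 1.46, 1.67, 0.974 and 1.00 FPM at pH 6.0, and at most at 2.72 and 3.14 FPM at pH 7.4. Des, desmin, lay between 15.1 and 28.8 FPM (median 19) against 3.31, 1.59, 1.71, 1.84 and 1.61 FPM, and at pH 7.4 at most at 1.36 and 1.96 FPM. Both filament genes were thus low in both lines at pH 7.4 and higher in NRK-52E at pH 6.0, with changes of 3.94 ± 0.48 and 3.52 ± 0.34. Tnfsf18, a TNF family ligand, changed by 5.24 ± 0.52, with between 7.89 and 32.3 FPM (median 18.3) against 0.968, 0.549, 0.223, 0.433 and 0.444 FPM at pH 6.0 and between 5.04 and 8.71 FPM over both lines at pH 7.4. The ligand Bmp4 and the dehydratase Tgds changed by 2.18 ± 0.18 and 2.37 ± 0.16. In favour of NRK-49F, the interleukin 1 receptor antagonist Il1rn lay between 0.740 and 4.73 FPM (median 2.24) against 14, 14.4, 20.9, 24.9 and 20.8 FPM at pH 6.0, and at least at 19.1 FPM in every sample at pH 7.4. Tcf7, a factor of Wnt signalling, Gas7, Rfx2 and Zcwpw1 changed by between -3.14 and -2.82.

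A log2 difference at pH 6.0 whose 95% interval lay within -0.25 to 0.25 was found for 282 genes. The highest with a symbol were Pabpc1, which binds poly(A) tails, Actb, beta-actin, the acid glucosidase Gaa, the myosin Myh9 and Grina. Actb lay between 1355 and 1903 FPM (median 1563) in NRK-52E and at 1504, 1487, 1592, 1833 and 1535 FPM in NRK-49F, a log2 difference of -0.03 with an interval from -0.24 to 0.19. Pabpc1 lay between 1816 and 1932 FPM (median 1889) against 2019, 2054, 1905, 1784 and 1920 FPM, with an interval from -0.19 to 0.11. The lines overlapped in both. For Gaa, Myh9 and Grina the intervals lay between -0.23 and 0.23, although Gaa differed by 0.26 in sample group 1 against group 6.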

How the data were processed

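RNA of NRK-52E and NRK-49F cells was sequenced as read pairs from poly(A) libraries, in n = 6 samples of each line at pH 7.4, n = 6 of NRK-52E and n = 5 of NRK-49F at pH 6.0. The deposited values are raw counts per gene, made by the authors with HISAT2 2.1.0 and featureCounts. Reads mapping to several places were counted, and nothing was normalized. The submitters' processing notes name the genome build rn6 and the paper another one, and the table gives no coordinates beyond the chromosome. The strand setting is not given in the sources used here, so genes with near-identical copies and overlapping or antisense genes are uncertain. Another 13 columns matched no label and were not used. Cell lines and pH values are as labelled, and replicate codes are not shared between groups. Sample groups are nested in the lines and shared by the 2 pH values, and the main model does not hold them.

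All 23 samples were fitted in 1 model with 4 conditions (R 4.3.3, edgeR 4.0.16): filterByExpr (minimum count 10, minimum total 15), TMM, the quasi-likelihood test and Benjamini-Hochberg adjustment over all genes tested, with a threshold of 0.05. SE come from the F statistic, and FPM from the cpm function on TMM-scaled library sizes. DESeq2 1.42.0 and limma 3.58.1 served as alternatives, and Python 3.11.15 with matplotlib 3.10.9 drew the figures. The steps were tested on simulated data.

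The members and the 36 lists, with 1049 entries of which 19 were not in the table, were chosen with earlier results of these data known. Named genes are, each way, the 8 highest 1-line genes (at most 3 counts in every sample of the other line), the 8 largest differences among genes above 3 counts in every sample that average 5 FPM or more without overlap, up to 3 members of each list, the 5 largest changes among genes that turned and the 5 largest differences among genes near equal at pH 7.4, and in addition the 5 highest near-equal genes at pH 6.0 and the cell type markers. The text names a selection of these, and some items tested with the others are not reported here. Other list members (such as Snai1, Slc4a10, Acta2, Tpm1, Ptk2b, Col4a1, Col4a2, Col14a1, Col4a5, Col20a1, Cd14, Trib3, Slc7a1, Mars1, Aars1 and Pycr1) were chosen after their values were seen. Promoters were matched by symbol. Alternatives changed the scaling, filter, test, depth and samples, and leaving out 3 pH 7.4 libraries and adding sample group as a fixed term were chosen after seeing the data.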

Additional observations from a re-analysis of the deposited data

Results flagged for a closer look

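In single samples at pH 6.0, 13 levels of named genes stood apart from the rest of their line by more than Dixon's 95% limit. They came from 360 groups examined (3.61%), and chance passes the limit in about 1 in 20 groups. Of these, 8 were in NRK-49F replicate A042. Its levels were the highest of the line for Cyp51 (111 FPM, the others at most at 79.2), Des (3.31), Tgds (58.2), Aldh1l2 (12.2), Mars1 (225), Akr1b8 (5669, the others at most at 3196) and Hmgcs1 (33.6), and the lowest for Cpt1a (464, the others at least at 728). The other 5 were Sesn1 in NRK-49F replicate A055 (35.8), Fgf10 in NRK-49F replicate A043 (7.99), Mvk in NRK-52E replicate A025 (11.9, the lowest), Hadha in NRK-52E replicate A038 (217) and Axl in NRK-52E replicate A026 (0.349). None of these samples was left out.

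The line difference of 19 named genes changed between the pH values by a test of the change itself. Towards NRK-52E, the log2 change was 2.96 for Cyp51, 2.89 for Plk2, 2.85 for Ccng1, 2.78 for Fads2, 5.24 for Tnfsf18, 3.94 for Nes, 3.52 for Des, 2.37 for Tgds and 2.18 for Bmp4. Towards NRK-49F, it was -5.45 for Ampd3, -3.51 for Fgf1, -3.41 for Mmd, -3.10 for Anpep, -3.00 for Fzd8, -3.14 for Gas7, -2.92 for Tcf7, -2.72 for Il1rn, -2.89 for Rfx2 and -2.82 for Zcwpw1. All 19 genes were chosen for such a change, so the values describe them.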

How the results depend on the processing

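All values were recomputed under up to 43 settings. Leaving out each sample in turn, the genes higher in NRK-52E numbered between 5139 and 5450, those higher in NRK-49F between 5609 and 5976, the called changes between 5672 and 6222 and the genes that turned between 501 and 602. A test against an absolute log2 difference of 1 gave 2167, 2810, 966 and 12. Counts summed per sample group and pH, which leave fewer samples, gave 2538 changes and 197 turned genes, and sample group 1 against group 4 alone 3248 and 265. Single pairs of sample groups called between 4386 and 5185 genes higher in NRK-52E and between 5278 and 5564 higher in NRK-49F. DESeq2 called 5629 in each direction, and both tools together called 5384 and 5622. The pH 6.0 samples alone gave 4894 and 5258, and limma voom with the sample group as a random block (correlation 0.131) 5148 and 5528. List medians changed sign for ammoniagenesis (0.0579 by library size alone and 0.0444 in sample group 1 against group 4), keratins (0 with no filter and -0.23 from the pH 6.0 samples alone), desmosome and adherens junction genes (0.78 when each sample had to hold 10 counts or more) and growth factor ligands (0.0445 from summed counts). Medians near 0 crossed it as well, with ranges from -0.48 to 1.10 for collagens, -0.999 to 0.44 for tubule transport, -0.55 to 0.60 for kidney developmental factors, -0.0912 to 0.47 for acid-base transport and -0.12 to 0.33 for TGF-beta signals and targets. The median of the epithelial markers lay between 0.55 and 2.89. Ccng1 turned in sample group 1 against groups 4 and 6 (-0.26 and -0.39), and Gaa in group 1 against group 6 (0.26). The cause was not tested. Of 214 named genes, 193 kept their direction and side of the threshold in every setting run. The changes of the 19 named genes that turned or emerged kept both in all 778 results. These 19 were chosen for a called change, and many of the 214 for a called difference, in the same data. Their steadiness was therefore favoured by the choice. Replicate codes are not shared between groups, but sample groups are shared by the pH values of a line, and with sample group as a fixed term (a replicate block), which can give the change only, 6631 changes were called. At the given depth, genes under 3 counts cannot be told from 0.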

Other observations

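Sample groups 1 and 3 of NRK-52E at pH 6.0 differed in several genes of the lists above, and no label says how the groups were made. Group 3 was higher than group 1 in Hspa5 (3432 against 1154 FPM), Trib3 (169 against 79.4), Ccng1 (750 against 283), Plk2 (81.7 against 31.0), Ephx1 (315 against 131) and Nes (30.0 against 12.7). Group 1 was higher in Aqp1 (106 against 27.3 FPM), Tnfsf18 (30.2 against 8.76), Id1 (179 against 72.5) and Adamts10 (999 against 444). Each value is the average of 3 samples, the genes were chosen after their values were seen, and no test was run.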
